A study of Mus musculus with 20 samples.

Results

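The splice junctions described here are those for which neither the 5′ nor the 3′ splice site is an annotated exon end, the class that the deposited junction table marks N. A junction is a gap of at least 70 bases across which RNA-seq reads were aligned, and its count is the number of reads that cross it. Junctions of this class were chosen by their summed read count, at least 100 over the 20 mice, which gave 7015 of 98694 junctions of the class and of 554616 junctions in the table. They are called unannotated junctions below. Because reads chose them, their totals are given as a description. They held 13376145 reads, or 94.0% of the reads of their class and 1.28% of the 1048069024 junction reads. The median was 301 reads and the highest 644136. At the threshold, 45 junctions had 100 reads and were taken, and 39 junctions had 99 reads and were not.

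The study asked how the splicing modulator sudemycin D6 acts on blood cells that express mutant U2AF1. Bone marrow came from 4 groups of 5 mice, which were U2AF1(WT) with vehicle, U2AF1(WT) with sudemycin D6, U2AF1(S34F) with vehicle and U2AF1(S34F) with sudemycin D6, and values by mouse are listed in this order. All 20 mice were irradiated congenic wild-type recipients, and each carried transplanted marrow that had been pooled from several donors with a rtTA transgene and a doxycycline-inducible transgene for either U2AF1(WT) or U2AF1(S34F). All received doxycycline chow (625 ppm) to induce the transgene for 7 days and, over the last 5 days, intravenous sudemycin D6 or vehicle. The promoter that drives rtTA is not given in the sources used here. Bulk marrow holds many cell types and some remaining recipient cells, so fewer cells of a type and less RNA per cell cannot be told apart. The p-values measure the spread between these mice.

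Introns end in an AG at the 3′ splice site, and U2AF1 is the subunit of the U2AF complex that contacts this AG and the base before it. The S34F change, found in myelodysplastic syndromes and acute myeloid leukaemia, is known to disfavour 3′ splice sites with a T just before the AG. Sudemycins bind the SF3B1 complex, which recognises the branch point upstream of that site. A junction with neither end annotated can be an intron of a transcript that the annotation lacks, a join made when B cells rearrange their immunoglobulin genes, or an alignment between near-identical copies of a sequence. Which of these a given junction is was not tested.

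The mice had 34384214 to 64813149 junction reads, with a median of 52634698. Between 4061 and 4675 unannotated junctions had a read in each U2AF1(WT) mouse and between 4716 and 5071 in each U2AF1(S34F) mouse. The groups did not overlap, but junction reads were 34384214 to 54774504 in the former mice and 49566969 to 64813149 in the latter. Counts of Xist, transcribed from the inactive X chromosome, were 39145 to 78640 in mice with U2AF1(WT) and 1 to 8 in mice with U2AF1(S34F), and the Y-linked genes Ddx3y, Eif2s3y and Kdm5d were at 0 in all U2AF1(WT) mice and at 2008 to 6120 in the others. Genotype therefore cannot be told apart from sex or from the donor pool. The U2af1 gene was higher in U2AF1(S34F) mice by a log2 fold change of 0.48 under vehicle (adjusted P=0.00029, edgeR) and 0.35 under sudemycin (adjusted P=0.0042, edgeR), and gene counts do not show which allele was read.

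Sequences are shown for the junctions on which the results below turn, from the NCBIM37 (mm9) genome, 5′ to 3′ on the strand of the junction. The pairs that come first show what matched copies are. The 20 bases before the 5′ end of the junction from Lyz1 to Lyz2 were compared with the 20 bases before its 3′ end, which a read would cover if it were aligned unsplit across that end, and the same was done for a junction in Pira5 where capitals mark the base that differs. These bases lie on the minus strand at chr10:116726188-116726207, chr10:116715712-116715731, chr7:3776777-3776796 and chr7:3690997-3691016.
Lyz1 to Lyz2, before the junction: ggtggtgagagatccccaag
Lyz1 to Lyz2, before the far end: ggtggtgagagatccccaag
Pira5, before the junction: tggtctccaggTggactaag
Pira5, before the far end: tggtctccaggAggactaag

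The second set holds the 3′ splice sites used or not used at the junctions that moved with sudemycin, with the AG in capitals and the base on which U2AF1(S34F) acts just before it. They lie at chr1:10387704-10387726 and chr1:10306011-10306033 on the plus strand, chr19:21445675-21445697 and chr19:21385374-21385396 on the minus strand, chr17:29272740-29272762 and chr17:29272111-29272133 on the plus strand and chr6:129419019-129419041 on the minus strand.
chr1 far: tgtcctttgtatcttaatAGgtg
chr1 near: aagaatttatccacttttAGaaa
chr19 near: cttgatgtttacttttctAGgtc
chr19 far: caccaccttttactttctAGgtg
Rab44 exon skipped: cccacctcttgcccctgtAGgcg
Rab44 exon included: cgagctttcccctactccAGgca
Clec7a: gctgttcgtgacgtatgaAGcat

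Unannotated junctions fell into 8 kinds by where their ends lie in the GENCODE vM1 annotation of the same build. Junctions with matched copies numbered 1720 and held 52.2% of the reads. In these, the 20 bases before the 2 ends, as in the first pairs above, or the 20 bases after them were identical at 16 or more places. Junctions outside genes numbered 1782 with 15.1% of the reads, and those with both ends inside the span of the same gene 1614 with 14.4%. A further 462 had 1 end in a gene (6.97% of reads), 448 lay on contigs without annotation (5.44%), 266 in immunoglobulin loci (2.49%), 576 only opposite to a gene (1.80%) and 147 between 2 genes without a match (1.54%).

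The kinds differed in sequence and span. The first and last bases of the intron were GT and AG in 93.3% of junctions outside genes, in 96.7% of those opposite to a gene and in 78.9% within 1 gene, but in 27.4% of those with matched copies, where AT-AC made up 37.7% and GC-AG 34.5%. The median intron was 62746.5 bases with matched copies, 1497.5 outside genes and 593.5 within 1 gene. Among the 6567 junctions with reference sequence, 1460 matched at all 20 bases, 108 at 12 to 15 and 4545 at 11 or fewer, so few lay near the limit of 16. Of those with matched copies, 870 joined 2 genes and 497 lay within 1 gene.

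Gene families with several similar copies carried many of the reads. The 201 junctions of histone genes, which package DNA and are expressed while it replicates, held 13% of all reads of unannotated junctions. The 17 junctions of Lyz1 and Lyz2, the lysozymes of myeloid cells, held 9.03%, the 29 of chitinase-like genes 7.68% and the 255 of the Pira and Lilr receptors of myeloid cells 4.86%. The junction with most reads, chr10:116715711-116726188 (minus strand), joined Lyz1 to Lyz2 and had 15029 to 43831 reads in every mouse, 644136 in all. By gene count, which can be uncertain between such copies, Lyz2 stood at 9790 ± 792 CPM (counts per 1000000 gene counts) and Lyz1 at 3.68 ± 0.98 in vehicle U2AF1(WT) mice (SD, n = 5).

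Many of these junctions were read deeply in some mice and not at all in others. Only 1702 of 7015 (24.3%) had a read in all 20 mice and 662 were read in 1 mouse only. Among junctions with matched copies 6.86% were read in all mice, against 38.0% outside genes and 22.1% within 1 gene. Of 475 unannotated junctions with at least 1000 reads in a mouse, 391 (82.3%) were at 0 in another mouse, including 262 of 288 with matched copies and 13 of 28 outside genes. The same held for 35 of 67 junctions with only the 5′ end annotated, 17 of 41 with only the 3′ end annotated and 16 of 12752 annotated junctions. No test was run on these shares, because the rule that chose the junctions used the same reads.

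**Figure D1:**
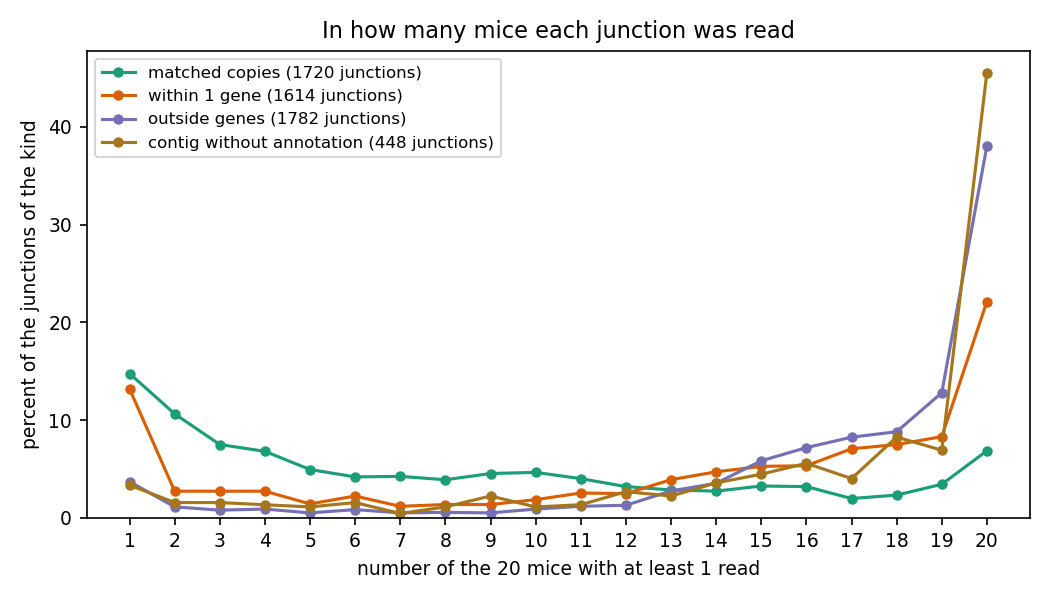
Percent of unannotated junctions of 4 kinds (y axis) by the number of mice, from 1 to 20, in which the junction had a read (x axis). Junctions outside genes pile up at 20 mice (38.0%), whereas 6.86% of those with matched copies reach 20.

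Examples show how this looked by mouse. The junction chr3:105953062-106007013 (minus strand) of Chi3l3, which encodes the chitinase-like protein Ym1 of myeloid cells, had 266977 reads and was at 0 in vehicle U2AF1(WT) mice 3 and 5, while all other mice had 10864 to 22516. The junction chr13:21842194-21923848 (minus strand) between the histone genes Hist1h4n and Hist1h4k ranged from 7 to 29845 reads. In Filip1l, a junction of 74 bases at chr16:57391501-57391576 (plus strand) had 188866 of its 188973 reads in sudemycin U2AF1(WT) mouse 12.

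A junction from Myl6b to Myl6, neighbouring myosin light chain genes, is the plainest case. At chr10:127929682-127933334 (minus strand) the vehicle U2AF1(WT) mice had 3728, 5302, 2651, 3463 and 4163 reads, the sudemycin U2AF1(WT) mice 0, 1, 0, 0 and 0, the vehicle U2AF1(S34F) mice 1, 0, 7673, 0 and 0, and all sudemycin U2AF1(S34F) mice 0. It was lower with sudemycin in U2AF1(WT) mice (adjusted P=1.19e-15, edgeR), with no fold given because 1 read remained, and did not pass in U2AF1(S34F) mice (adjusted P=0.572, edgeR). The Myl6 gene had 439 CPM under vehicle and 560 under sudemycin in U2AF1(WT) mice (log2 fold change 0.38, adjusted P=0.15, edgeR), so the loss of this junction had no fall in the gene beside it.

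**Figure D2:**
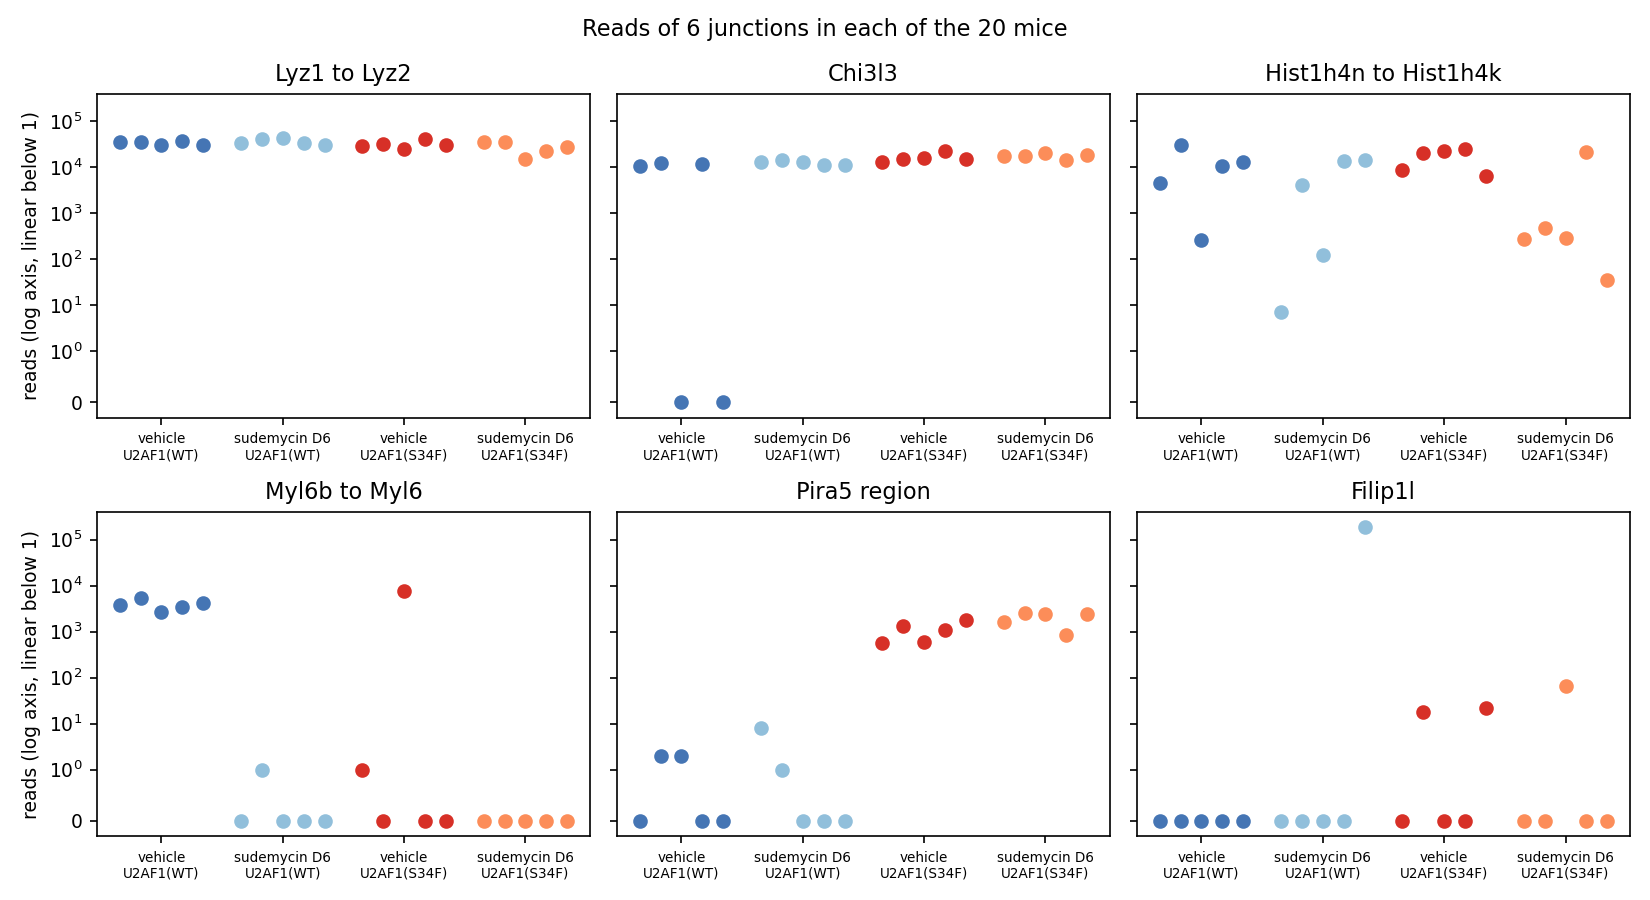
Reads per mouse (y axis, symmetric log scale, linear near 0) of 6 unannotated junctions, 1 panel each, with the 4 groups along the x axis and 1 point per mouse. The Lyz1 to Lyz2 junction is read in all mice, whereas Chi3l3 drops to 0 in 2 vehicle U2AF1(WT) mice and Filip1l stands at 188866 in a single mouse.

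Over all unannotated junctions, the reads per 1000000 junction reads (CPM) were 12135 ± 396 (SD, n = 5) in vehicle U2AF1(WT) mice, 12596 ± 2385 in sudemycin U2AF1(WT) mice, 13306 ± 2475 in vehicle U2AF1(S34F) mice and 12859 ± 2014 in sudemycin U2AF1(S34F) mice. The groups overlapped. No difference passed an exact two-sided permutation test over mice, for which 5 against 5 mice give a P of 0.00794 at the lowest. U2AF1(S34F) minus U2AF1(WT) was 1171.5 CPM under vehicle (exact permutation P=0.341) and 262.5 under sudemycin (exact permutation P=0.841). Sudemycin minus vehicle was 461.6 in U2AF1(WT) mice (exact permutation P=0.714) and -447.4 in U2AF1(S34F) mice (exact permutation P=0.746), and all were 0.841 after adjustment over the 4 comparisons.

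**Figure D3:**
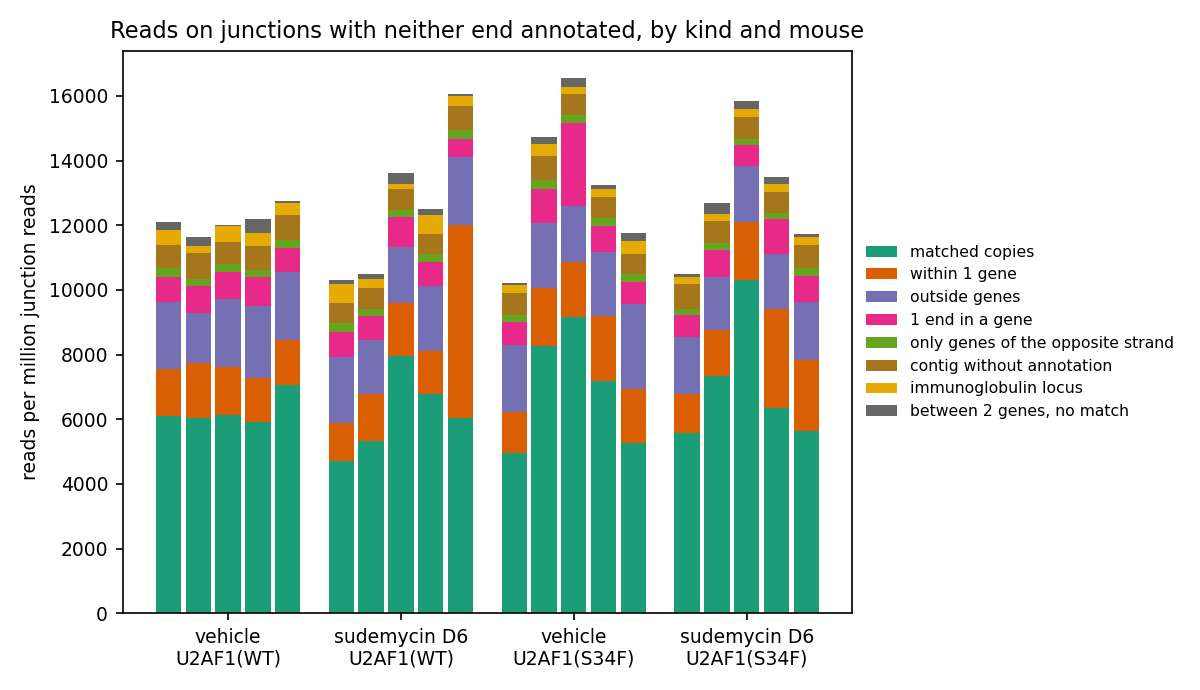
Summed level of unannotated junctions in CPM (y axis, from 0) in each of the 20 mice (x axis, by group), stacked by kind of location. Matched copies make up the largest band, and the group means lie between 12135 and 13306 with overlapping mice.

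No difference by gene location passed either. Junctions outside annotated genes, immunoglobulin segments and similar copies included, held 17.5 ± 2.07%, 16.6 ± 3.16%, 17.7 ± 5.40% and 14.9 ± 2.49% of the reads in the 4 groups (SD, n = 5), and the exact permutation P adjusted over the 4 comparisons was 0.730 to 0.944. Immunoglobulin loci held 3.28 ± 0.87%, 3.26 ± 1.87%, 2.29 ± 0.87% and 1.74 ± 0.22% in the 4 groups (SD, n = 5), with adjusted exact permutation P of 0.270 for both genotype comparisons. For the 8 kinds, none of the 32 comparisons passed. The nearest was the rate opposite to a gene under sudemycin, 250 CPM in U2AF1(WT) and 203 in U2AF1(S34F) mice (exact permutation P=0.0159, adjusted P=0.254 over 32).

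Single junctions were then tested with edgeR on all junctions with at least 100 reads, at a false discovery rate (FDR) under 10%. Between genotypes under vehicle, 402 unannotated junctions were higher in U2AF1(S34F) mice and 357 lower, 11.5% of 6601 tested, where 18.1% of all junctions tested were called (8.36% higher and 9.77% lower). Under sudemycin, 342 were higher and 323 lower, 10.2% of 6527, where 18.4% of all junctions were called (9.13% higher and 9.26% lower). In both, the share called was below that of all junctions, most of which were annotated. Of annotated junctions, 19.64% were called under vehicle and 20.04% under sudemycin. With only the 5′ end annotated, 9.91% and 9.29% were called. With only the 3′ end annotated, 7.99% and 8.07% were called, and the class marked NDA had 10.38% and 10.29%. The lower share was therefore not particular to junctions with neither end annotated. The CPM of the genotypes did not overlap for 5.40% and 5.50% of unannotated junctions, against 11% and 11.1% of all junctions. With gene counts as offset, the split was 164 higher and 84 lower under vehicle. Junctions with matched copies gave 123 higher and 82 lower under vehicle and 117 and 68 under sudemycin, and those outside genes 100 and 103, and 62 and 102. Of the 100 and the 62, 22 and 5 lay in a stretch of 1700 bases, chr17:39983331-39985030 (minus strand), with 0 lower there. It held 121 junctions, 41 of them GT-AG, and summed to 0 to 48.7 and 0.02 to 222 CPM in the U2AF1(WT) groups. In the U2AF1(S34F) groups it had 31.4 to 263 and 88.7 to 184. The median absolute log2 fold change between genotypes under vehicle was 1.81 with matched copies and 0.55 outside genes.

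The 2 genotype comparisons share no mouse. Of the unannotated junctions called, 141 were higher in both (35.1% of those higher under vehicle and 41.2% of those higher under sudemycin), 156 were lower in both (43.7% and 48.3%) and 3 were opposite. Matched copies made up 66 of the former and 34 of the latter, and junctions outside genes 21 and 57. Chromosome 7 held 87 of the 297, with 62 higher and 25 lower. How often junctions of all classes were called in both was not counted, so no share is set beside these counts.

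**Figure D4:**
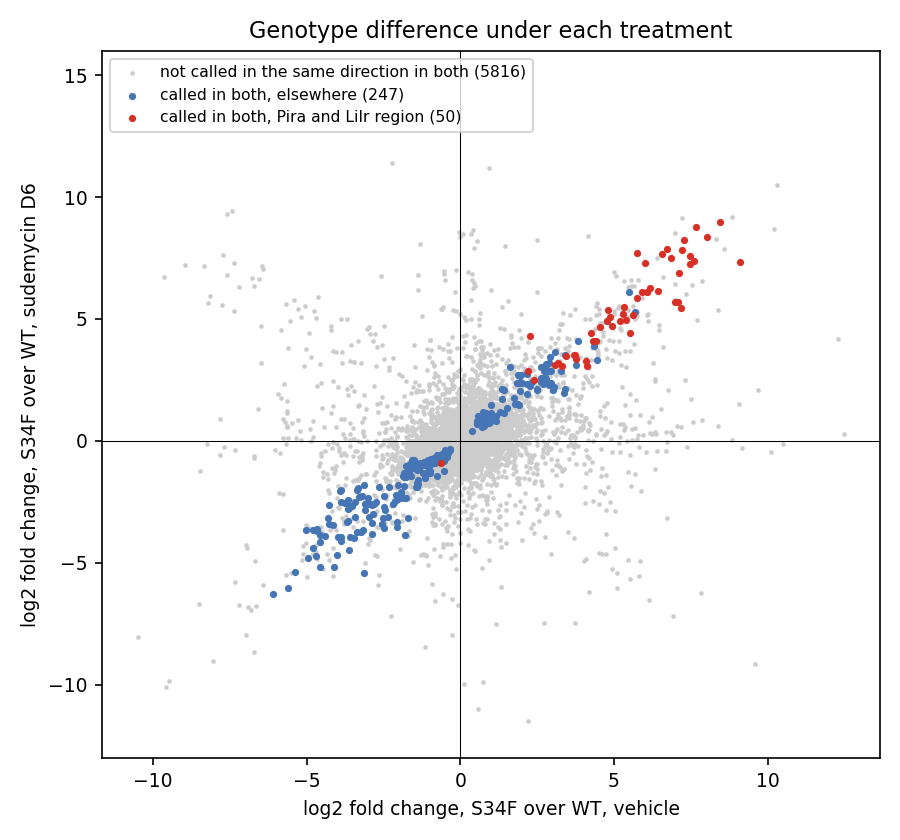
Log2 fold change of U2AF1(S34F) against U2AF1(WT) mice under vehicle (x axis) and under sudemycin (y axis) for the 6113 unannotated junctions tested in both, 1 point each. The 50 coloured points of the Pira and Lilr region of chromosome 7 that were called in both lie mainly at the upper right, beside 247 others called in both and 5816 that were not.

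Most of the chromosome 7 junctions that were higher lay in 1 region. The region chr7:3665881-3867129, which holds Pira5, Lilra6 and Lilrb3, paired immunoglobulin-like receptors of myeloid cells, had 226 unannotated junctions, 224 of them with matched copies. Their summed CPM was 84.6 to 507 in vehicle U2AF1(WT) mice, 119 to 312 in sudemycin U2AF1(WT) mice, 383 to 676 in vehicle U2AF1(S34F) mice and 423 to 587 in sudemycin U2AF1(S34F) mice, so the genotypes overlapped under vehicle only. Of these junctions 58 were higher and 3 lower under vehicle, 55 higher and 5 lower under sudemycin, and 49 higher in both. The genes moved less: Pira5 was higher under vehicle by a log2 fold change of 0.23 (adjusted P=0.071, edgeR) and had 0.33 under sudemycin (adjusted P=0.18, edgeR), Lilra6 had 0.02 and 0.07, and Lilrb3 fell, with -0.57 and -0.47 (adjusted P=0.00073 and 0.024, edgeR).

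The junction chr7:3684370-3736048 (minus strand), with 1 end in Pira5 and a GC-AG intron, showed it by mouse. The vehicle U2AF1(WT) mice had 0, 2, 2, 0 and 0 reads and the sudemycin U2AF1(WT) mice 8, 1, 0, 0 and 0. The vehicle U2AF1(S34F) mice had 572, 1347, 585, 1101 and 1814 and the sudemycin U2AF1(S34F) mice 1642, 2492, 2443, 854 and 2380. No mouse of either genotype overlapped the other, and the fitted log2 fold change was 8.44 ± 0.53 (SE) under vehicle (adjusted P=2.83e-05, edgeR) and 8.99 ± 0.65 under sudemycin (adjusted P=0.000153, edgeR).

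Detection in all mice of a genotype and no mouse of the other was then counted. All 10 U2AF1(S34F) mice and no U2AF1(WT) mouse read 26 unannotated junctions (0.371%, against 0.0799% of all junctions with 100 reads). Of these, 24 lay in the Pira and Lilr region, with 4 to 696 reads in each U2AF1(S34F) mouse. The others were chr7:26262564-26324795 (minus strand) from Ceacam2 to Ceacam1, cell adhesion molecules of the immunoglobulin superfamily, with 936 reads, and a junction on a Y chromosome contig. The Ceacam2 gene was also higher in U2AF1(S34F) mice, by log2 fold changes of 1.88 under vehicle (adjusted P=0.0020, edgeR) and 2.00 under sudemycin (adjusted P=0.0014, edgeR), at a mean of 0.216 and 0.976 CPM in the U2AF1(WT) and U2AF1(S34F) mice given sudemycin, while Ceacam1 had -0.01 and -0.11. The reverse pattern was seen for 10 unannotated junctions (0.143%, against 0.0227%).

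The deepest of those 10 was in Slpi, which encodes an inhibitor of leukocyte proteases. This junction at chr2:164182242-164185001 (minus strand), a GT-AG intron of 2758 bases from a Slpi intron to a Slpi exon outside the coding part, had 37, 38, 26, 44 and 71 reads in vehicle U2AF1(WT) mice, 81, 37, 99, 87 and 42 in sudemycin U2AF1(WT) mice and 0 in all U2AF1(S34F) mice. Against a floor of 3 reads over a group it was at least 89-fold lower under vehicle (adjusted P=8.61e-06, edgeR) and at least 126-fold lower under sudemycin (adjusted P=9.28e-06, edgeR). The gene itself did not follow, with 208 ± 20, 243 ± 39, 266 ± 29 and 199 ± 29 CPM in the 4 groups (SD, n = 5), a log2 fold change between genotypes of 0.40 under vehicle (adjusted P=0.019, edgeR) and -0.27 under sudemycin (adjusted P=0.26, edgeR).

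A junction in Elmo2, an engulfment and cell motility gene, came close to the same pattern. At chr2:165118176-165118288 (minus strand) the U2AF1(WT) mice had 108, 194, 56, 60 and 38 reads under vehicle and 80, 74, 109, 52 and 116 under sudemycin. U2AF1(S34F) mice were at 0 apart from 2 reads in vehicle mouse 3 and 1 read in sudemycin mouse 10. It is a junction with matched copies, and 2 further Elmo2 junctions beside it were among those 10.

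Outside genes, junctions were grouped into 623 loci of 1994 junctions, of which 314 loci had 1 junction and 94 had 5 or more, and the 6 with most reads held 45.8% of their reads. The largest, chr15:74809763-75207623 (minus strand), held 44 junctions and 422581 reads in a stretch where the later RefSeq annotation of GRCm38.p6 lists the Ly6 genes, surface antigens of blood cells. Between Atxn3 and Cpsf2, where that annotation lists Ndufb1, a subunit of mitochondrial complex I, 3 junctions at chr12:103206420-103213870 (minus strand) had 39.8 to 92.3 and 47.8 to 82.0 CPM in the U2AF1(WT) groups and 107 to 132 and 116 to 140 in the U2AF1(S34F) groups. The genotypes did not overlap there, and 2 of the 3 were higher under vehicle and all 3 under sudemycin. A locus at chr7:134681684-134701482 (plus strand) beside the chromatin remodeller Srcap held 15 junctions at 39.8 to 66.4 and 31.8 to 64.2 CPM in U2AF1(WT) mice and at 19.4 to 32.7 and 25.4 to 46.3 in U2AF1(S34F) mice, where 13 were lower under vehicle and 6 under sudemycin.

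One junction outside genes was lost almost whole in U2AF1(S34F) mice. At chr7:113747553-113756747 (minus strand) the vehicle U2AF1(WT) mice had 511, 537, 293, 333 and 605 reads and the sudemycin U2AF1(WT) mice 415, 333, 328, 373 and 340. The vehicle U2AF1(S34F) mice had 29, 21, 6, 23 and 2 and the sudemycin U2AF1(S34F) mice 47, 1, 18, 12 and 2. The groups were far apart, with log2 fold changes of -4.81 ± 0.46 (SE, adjusted P=0.000381, edgeR) and -4.41 ± 0.60 (adjusted P=0.00254, edgeR). Its locus, chr7:113221385-113788107, where later RefSeq annotation lists Gvin1 among others, held 50 junctions, 25 of them with matched copies. Of these 50, 8 were higher and 10 lower under vehicle, and 6 and 11 under sudemycin. The locus as a whole did not fall, with means of 101 and 109 CPM in U2AF1(WT) and U2AF1(S34F) mice under vehicle. Under sudemycin they were 77.6 and 85.8.

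Some immunoglobulin joins were lower in U2AF1(S34F) mice. The spliced joins from the kappa J segments to the kappa constant exon had 33022 reads for Igkj1, 36100 for Igkj2, 20432 for Igkj4 and 34030 for Igkj5. The Igkj5 join at chr6:70673917-70676429 (plus strand) had 2653, 1210, 2309, 3908 and 974 reads in vehicle U2AF1(WT) mice, 2485, 3215, 1196, 4951 and 1820 in sudemycin U2AF1(WT) mice, 806, 1163, 477, 1353 and 1248 in vehicle U2AF1(S34F) mice and 757, 735, 1080, 1034 and 656 in sudemycin U2AF1(S34F) mice. All sudemycin U2AF1(S34F) mice lay below all sudemycin U2AF1(WT) mice, whereas the genotypes overlapped under vehicle.

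The log2 fold changes of the Igkj5 join were -1.42 (adjusted P=0.0997, edgeR) and -1.71 (adjusted P=0.00548, edgeR). The former call was lost without any of 8 of the 10 mice, all but vehicle U2AF1(WT) mice 2 and 5, with an adjusted P up to 0.205 (edgeR). Igkj2 passed under vehicle only and Igkj1 under sudemycin only, and Igkj4 under vehicle only, while the interaction of genotype and drug passed for no junction. Over the 266 immunoglobulin junctions 31 were higher and 14 lower under vehicle, and 10 and 14 under sudemycin, where 8.36% and 9.77% of all junctions tested were called higher and lower under vehicle and 9.13% and 9.26% under sudemycin. B cell markers moved beside them: of 10 such genes 0 were called under vehicle and 5 fell under sudemycin (19.6% of all genes were called lower), with summed levels of 26.8 to 229 CPM in U2AF1(WT) and 40.3 to 64.2 in U2AF1(S34F) mice, and Cd79a, part of the B cell receptor, fell by 1.60 on the log2 scale (adjusted P=0.019, edgeR). Their part in the result was not tested.

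The base before the AG was tallied in the 4113 GT-AG unannotated junctions without matched copies, in which it was T in 22.8% and A in 10.9%. Among those lower in U2AF1(S34F) mice it was T in 27.7% of 231 under vehicle and 26.0% of 219 under sudemycin, and A in 5.19% and 5.02%. Among those higher it was T in 14.9% of 195 and 20% of 155, and A in 17.9% and 16.8%. These shares are a description over junctions, which are not replicates.

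Sudemycin changed few unannotated junctions. In U2AF1(WT) mice 6 were higher and 13 lower, 0.297% of 6397 tested, where 0.206% of all junctions were called (0.0941% higher and 0.112% lower), and with gene counts as offset 1 was higher and 9 were lower. In U2AF1(S34F) mice 22 were higher and 48 lower, 1.06% of 6589, where 1.11% of all junctions were called (0.522% higher and 0.587% lower). There were 31 calls without sudemycin U2AF1(S34F) mouse 2 and 45 without mouse 9 or 10, and with gene counts as offset 2 were higher and 6 lower. The CPM of the drug groups did not overlap for 1.47% and 2.47% of unannotated junctions, against 1.58% and 2.99% of all. The shares called lay near those of all junctions, and outside genes 11 were higher and 27 lower in U2AF1(S34F) mice, 2.15% of those tested. The 2 drug comparisons share no mouse, and 1 junction was higher and 5 were lower in both, a count not made over junctions of all classes.

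The junction that was higher in both lay opposite to Cpa6, a carboxypeptidase gene, on chromosome 1. At chr1:10305420-10387724 (plus strand), an intron of 82303 bases, the vehicle U2AF1(WT) mice had 90, 71, 78, 61 and 107 reads and the sudemycin U2AF1(WT) mice 349, 507, 336, 367 and 402, and the vehicle U2AF1(S34F) mice had 57, 91, 78, 106 and 91 and the sudemycin U2AF1(S34F) mice 262, 283, 205, 199 and 318. Every treated mouse was above every vehicle mouse, with log2 fold changes of 2.16 ± 0.20 (SE, adjusted P=3.25e-05, edgeR) in U2AF1(WT) and 1.65 ± 0.18 (adjusted P=0.000254, edgeR) in U2AF1(S34F) mice. Its 5′ splice site was shared by 29 junctions, and its share of their reads rose from 11 ± 2.42% to 36.7 ± 5.47% and from 11.3 ± 1.20% to 36.9 ± 4.01% (SD, n = 5).

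From this 5′ splice site, the unannotated junction with most reads moved the other way in U2AF1(S34F) mice. The junction chr1:10305420-10306031 (plus strand), to the near site printed above, had 505, 342, 491, 672 and 607 reads in vehicle and 424, 545, 689, 398 and 374 in sudemycin U2AF1(WT) mice, which overlapped (log2 fold change -0.21, adjusted P=0.952, edgeR). In U2AF1(S34F) mice it had 322, 432, 492, 499 and 408 reads under vehicle and 237, 309, 175, 166 and 188 under sudemycin, without overlap, and fell by 0.93 on the log2 scale (SE 0.16, adjusted P=0.0108, edgeR).

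On chromosome 19, between Zfand5 and Gda, 2 unannotated junctions from a 5′ splice site shared by 29 junctions moved in opposite directions with sudemycin. The 16 unannotated junctions of this locus together had means of 20.1 CPM under vehicle and 14.6 under sudemycin in U2AF1(WT) mice. In U2AF1(S34F) mice they had 26.2 and 17.6. Guanine deaminase (Gda) lies 7439 bases away on the same strand. The near junction, chr19:21445677-21458358 (minus strand), had 467, 352, 204, 453 and 493 reads in vehicle U2AF1(WT) mice, 202, 116, 157, 200 and 118 in sudemycin U2AF1(WT) mice, 321, 444, 418, 554 and 413 in vehicle U2AF1(S34F) mice and 135, 170, 138, 123 and 165 in sudemycin U2AF1(S34F) mice. Every treated mouse was below every vehicle mouse of its genotype, with log2 fold changes of -1.37 ± 0.20 (SE, adjusted P=0.00377, edgeR) and -1.47 ± 0.14 (adjusted P=8.23e-05, edgeR). Its share of the reads from the 5′ site fell from 57.3 ± 5.13% to 32.2 ± 8.57% and from 40.2 ± 2.99% to 20.8 ± 2.05% (SD, n = 5).

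The far junction from the same site, chr19:21385376-21458358, had 28, 38, 19, 36 and 56 reads in vehicle and 108, 50, 50, 152 and 184 in sudemycin U2AF1(WT) mice (log2 fold change 1.53 ± 0.35 SE, adjusted P=0.132, edgeR). In U2AF1(S34F) mice it had 57, 110, 99, 77 and 110 reads under vehicle and 158, 159, 191, 156 and 164 under sudemycin, without overlap, and rose by 0.93 on the log2 scale (SE 0.17, adjusted P=0.0138, edgeR). Another junction that ends at the near site, chr19:21445677-21448789, had 89, 65, 113, 139 and 144 against 29, 8, 31, 33 and 12 reads in U2AF1(WT) mice and 151, 125, 112, 144 and 139 against 9, 15, 42, 20 and 14 in U2AF1(S34F) mice. It fell in both, by 2.31 (SE 0.36, adjusted P=0.00741, edgeR) and 2.59 (SE 0.29, adjusted P=0.000371, edgeR) on the log2 scale.

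Rab44 belongs to the Rab family of small GTPases, and a junction with 1 end in this gene skips an unannotated exon beside it. The junction, chr17:29270757-29272760 (plus strand), had 433, 330, 267, 455 and 379 reads in vehicle and 215, 177, 219, 209 and 135 in sudemycin U2AF1(WT) mice, and 262, 306, 299, 376 and 281 in vehicle and 157, 139, 206, 165 and 124 in sudemycin U2AF1(S34F) mice. Treated mice lay below vehicle mice in both genotypes, with log2 fold changes of -1.04 ± 0.17 (SE, adjusted P=0.0115, edgeR) and -0.88 ± 0.13 (adjusted P=0.00278, edgeR). Junctions into and out of an exon of 147 bases, chr17:29272131-29272277, which it skips, took a larger part with the drug: inclusion rose from 56.6 ± 1.60% to 78.9 ± 3.91% in U2AF1(WT) and from 59.3 ± 2.31% to 74.7 ± 1.93% in U2AF1(S34F) mice (SD, n = 5). The Rab44 gene had log2 fold changes of -0.03 and -0.14 with the drug.

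In Clec7a, the gene of the beta-glucan receptor Dectin-1, a junction from a coding exon to a site in an intron was lower with sudemycin. At chr6:129419021-129420917 (minus strand) the U2AF1(WT) mice had 294, 149, 180, 234 and 278 reads under vehicle and 136, 48, 30, 94 and 81 under sudemycin, and the U2AF1(S34F) mice 224, 255, 181, 156 and 173 and 83, 98, 62, 67 and 54. The drug groups did not overlap in either genotype. The log2 fold change was -1.62 ± 0.32 (SE, adjusted P=0.0658, edgeR) and -1.37 ± 0.18 (adjusted P=0.00137, edgeR), and the call in U2AF1(WT) mice was lost without any of 7 of the 10 mice, namely vehicle mice 1, 3, 4 and 5 and sudemycin mice 8, 10 and 12, with an adjusted P up to 0.200 (edgeR). The share of this junction in the reads from its 5′ splice site fell from 27.0 ± 5.85% to 11.2 ± 4.85% and from 25.2 ± 2.05% to 12.9 ± 2.65% (SD, n = 5), and the gene had log2 fold changes of -0.63 (adjusted P=0.038, edgeR) and -0.34 (adjusted P=0.11, edgeR).

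The last junction lower in both lay between Ifitm5 and Ifitm1, interferon-induced transmembrane genes, at chr7:148140696-148150849 (plus strand). Its log2 fold changes were -0.98 ± 0.22 (SE, adjusted P=0.0997, edgeR) and -0.77 ± 0.13 (adjusted P=0.00942, edgeR). The call in U2AF1(WT) mice was lost without any of 8 of the 10 mice, all but vehicle mouse 2 and sudemycin mouse 6, with an adjusted P up to 0.278 (edgeR).

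**Figure D5:**
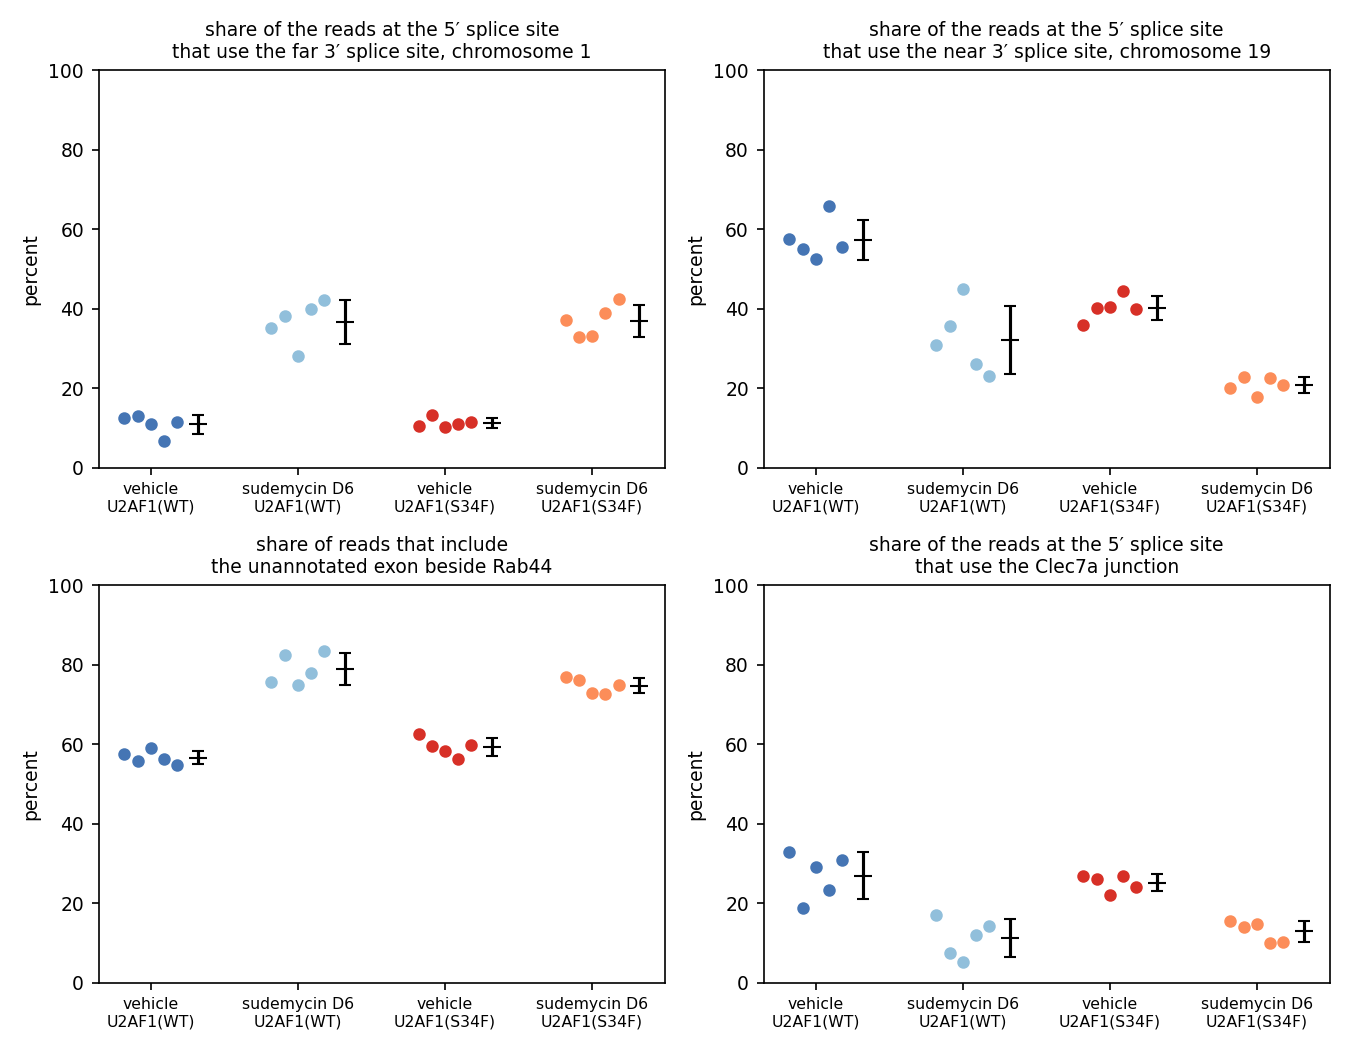
Percent of reads (y axis) of 4 splicing choices in each group (x axis), 1 panel each, with a point per mouse and a bar at the mean ± SD (n = 5). The chromosome 1 far junction and inclusion of the Rab44 exon rise with sudemycin in both genotypes, and the chromosome 19 near junction and the Clec7a junction fall.

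A pair of junctions was read in all 10 sudemycin mice and in no vehicle mouse, 0.0285% of unannotated junctions and the only such pair among all junctions with 100 reads (0.0013%). They lie opposite to Myrip on the minus strand and flank an exon of 160 bases, chr9:120268761-120268920. The junction chr9:120266804-120268761 had 19, 27, 41, 1 and 4 reads in sudemycin U2AF1(WT) mice and 2, 10, 20, 1 and 3 in sudemycin U2AF1(S34F) mice, at least 28.4-fold and 12.6-fold above the floor of 3 reads over a group (adjusted P=0.105 and 0.128, edgeR). The junction chr9:120268920-120269760 had 3, 5, 40, 1 and 6 and then 6, 35, 16, 10 and 4 reads, at least 17-fold and 24.8-fold above the floor (adjusted P=0.297 and 0.0249, edgeR). It passed in U2AF1(S34F) mice alone, and without sudemycin U2AF1(S34F) mouse 6 it did not (adjusted P=0.105, edgeR). In single mice the counts went down to 1 read. No unannotated junction, and none of all junctions, was read in every vehicle mouse and in no sudemycin mouse.

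A junction in Fpr3, a formyl peptide receptor gene, rose in U2AF1(S34F) mice, where its gene was also higher. At chr17:18069744-18070043 (plus strand) the U2AF1(WT) mice had 0, 14, 4, 5 and 4 reads under vehicle and 14, 76, 33, 31 and 42 under sudemycin, which touched at 14 (log2 fold change 2.46, adjusted P=0.163, edgeR). The U2AF1(S34F) mice had 0, 9, 0, 4 and 5 and 42, 49, 70, 26 and 21, with a log2 fold change of 3.01 ± 0.56 (SE, adjusted P=0.024, edgeR). The gene went from 0.0199 to 2.84 and from 0.0862 to 2.60 CPM, log2 fold changes of 5.56 and 4.45. With the gene count as offset, the junction turned to -2.39 on the log2 scale in U2AF1(S34F) mice. The gene counts under vehicle lay near the floor, so whether the junction rose less than its gene cannot be read from these values.

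Among gene families, the 51 junctions of the major histocompatibility (H2) genes, 47 of them with matched copies, summed to 101 ± 11 CPM under vehicle and 44.1 ± 6.03 under sudemycin in U2AF1(WT) mice and to a mean of 104 ± 28 and 53.5 ± 27 in U2AF1(S34F) mice (SD, n = 5). The former groups did not overlap, with 90.3 to 120 and 38.2 to 52.6, and the latter did. The 30 junctions of the interferon-inducible Ifi200 family went from 26.2 ± 11.9 to 4.77 ± 3.07 in U2AF1(WT) mice. The 44 junctions of Gp49a and Lilrb4, related immunoglobulin-like receptors of myeloid cells, stood at 398 ± 117 and 289 ± 72 in U2AF1(WT) and 190 ± 64 and 184 ± 33 in U2AF1(S34F) mice. These families were singled out after their values were seen, so no test was run.

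No junction passed for the interaction of genotype and drug, that is, for a drug effect that differs between genotypes (0 of 153980, edgeR, 0.0% of all junctions). At an unadjusted P under 0.05 there were 519 unannotated junctions and 7108 of all, and DESeq2 called 84 unannotated junctions higher and 68 lower. The lowest adjusted P was 0.314, for a junction of Pag1 at chr3:9688093-9688197 (minus strand), an adaptor of signalling in blood cells. Its reads were 80, 59, 61, 33 and 50 in vehicle and 0 in all sudemycin U2AF1(WT) mice, and 2, 0, 0, 2 and 0 in vehicle and 42, 0, 2, 1 and 0 in sudemycin U2AF1(S34F) mice. The next, chr19:11453386-11455814 (plus strand, adjusted P=0.317), had 98, 111, 83, 186 and 182, then 162, 73, 51, 97 and 132, then 20, 49, 45, 14 and 33, and then 138, 129, 89, 97 and 60 reads in the 4 groups. The vehicle U2AF1(S34F) mice were below all others.

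Genes that could bear on such junctions were counted as well. Of 17 genes of 3′ splice site recognition, 3 were higher and 6 lower in U2AF1(S34F) mice under vehicle and 3 and 4 under sudemycin, where 19.7% and 19.8% of all genes were called higher and lower under vehicle and 17.2% and 19.6% under sudemycin. Sf1, the branch point binding protein, fell by 0.67 and 0.36 on the log2 scale, and U2af2, the partner of U2af1, by 0.35 and 0.38. With sudemycin 1 was higher and 0 lower in U2AF1(WT) mice (all genes 1.18% and 1.89%) and 4 and 2 in U2AF1(S34F) mice (all genes 4.94% and 5.85%), and Sf3b3, a subunit of the drug's target complex, had log2 fold changes of 0.61 and 0.54. Of 21 genes of RNA surveillance, which removes faulty transcripts, 4 were higher and 2 lower between genotypes under vehicle, 4 and 3 under sudemycin, and 0 and 0, and 0 and 1, with the drug.

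Markers of the cell types in marrow moved in part with the groups. The 11 neutrophil markers had summed levels of 66027 to 74833 CPM in vehicle U2AF1(WT) and 92488 to 128521 in vehicle U2AF1(S34F) mice. Under sudemycin they had 63767 to 92396 and 76892 to 115620. Of these markers 6 were higher under vehicle and 3 under sudemycin, and 0 lower (19.7% and 17.2% of all genes were called higher). Between genotypes under sudemycin, 5 of 8 erythroid, 3 of 7 T and NK cell, 4 of 6 eosinophil, basophil and mast cell, 3 of 6 plasma cell and 2 of 6 megakaryocyte markers were lower, where 19.6% of all genes were. With sudemycin, 3 of 6 stem and progenitor markers and 4 of 6 eosinophil, basophil and mast cell markers were lower with U2AF1(WT), and 5 and 3 with U2AF1(S34F), where 1.89% and 5.85% of all genes were lower. Of 8 monocyte and macrophage markers, 1 was higher and 3 lower between genotypes under vehicle, and of 7 stromal markers 1 and 2, where 19.7% and 19.8% of all genes were called higher and lower. Their part in the junction results was not tested.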

How the data were processed

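The 7015 junctions, the kinds of location and the gene lists (3′ splice site recognition, RNA surveillance and markers of marrow cell types) were chosen with earlier results of these data known. RNA was bone marrow total RNA, depleted of ribosomal RNA and sequenced with strand. The authors deposited a table of read counts per splice junction and a table of read counts per gene, in 20 columns each, as raw counts without normalization. The submitters' processing notes name TopHat2 2.0.8, TopHat, SAMtools and mm9. Reads aligned between similar copies were counted as deposited, which can raise or split counts in multicopy genes.

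Junctions with 100 reads over the 20 mice (153980) were fitted with edgeR 4.0.16 (TMM, quasi-likelihood, robust, prior count 2) within each comparison of 10 mice, with Benjamini-Hochberg adjustment over all junctions tested and a threshold of 10%. The interaction was fitted over all 20 mice. DESeq2 1.42.0 (R 4.3.3), size factors, other filters, leaving out each mouse, a replicate block and gene counts as offset were alternatives. Rates in CPM and shares were compared by exact permutation over mice (Python 3.11.15, scipy 1.17.1) and called at an adjusted P under 0.05. Gene counts were fitted like junctions. Floors of 3 reads cover counting error only. Locations and sequences came from GENCODE vM1 and NCBIM37, and Ly6, Ndufb1, Igha, Ighm and Gvin1 names from RefSeq (GRCm38.p6) by neighbouring genes.

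Named junctions were the 10 with most reads, the 6 called junctions with the largest fold change in each direction and comparison whose groups did not overlap and that averaged 10 reads per mouse in the higher group, those called in both genotype or both drug comparisons (up to 6 each), those called for the interaction, the 6 loci outside genes with most reads, and U2af1 with host genes. Junctions named for detection in all or no mice of a group, the interaction junctions of lowest adjusted P, the alternative 3′ splice sites, the Igk joins and the families were chosen after their values were seen. On simulated data for the genotype comparison under vehicle, fold changes of 1, 2 and 3 on the log2 scale were recovered for 2%, 24.5% and 26% of unannotated junctions and 32.5%, 69% and 86.5% of all junctions. In each run 200 junctions were changed. Of the calls made, 66.7%, 19.7% and 23.5% were false where unannotated junctions were changed. Where junctions of any class were changed, 19.8%, 14.8% and 13.9% were false. All of these lay above the threshold of 10%.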

Additional observations from a re-analysis of the deposited data

Results flagged for a closer look

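In each group of 5 mice, a mouse was singled out where its gap to the nearest other mouse was large beside the range of the group (Dixon's test at its 95% critical value). This was the case in 16 of 140 groups of values. The rate of about 1 in 20 by chance holds for normal values. Some groups here were counts at 0 in all mice but 1, and some junctions were chosen after their values were seen. The 16 therefore cannot be set against that rate. No cause was tested.

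Among rates and shares, the share of reads outside annotated genes was 13.9% in vehicle U2AF1(WT) mouse 2 and 17.7% to 18.9% in the others, and the rate outside genes in that mouse was 1539 CPM against 2073 to 2204. The rate with matched copies was 7058 in vehicle U2AF1(WT) mouse 5 against 5904 to 6134. The rate within 1 gene was 5968 in sudemycin U2AF1(WT) mouse 12 against 1186 to 1646, and the rate with 1 end in a gene was 2578 in vehicle U2AF1(S34F) mouse 5 against 681 to 1038.

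Among junctions read deeply, Filip1l had 188866 reads in sudemycin U2AF1(WT) mouse 12, with 0 in the others of that group, and 67 in sudemycin U2AF1(S34F) mouse 9. The junction from Hist1h4n to Hist1h4k had 21058 reads in sudemycin U2AF1(S34F) mouse 10 against 36 to 469. The junction from Myl6b to Myl6 had 1 read in sudemycin U2AF1(WT) mouse 8 and 7673 in vehicle U2AF1(S34F) mouse 5, where the others had at most 1.

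Among the other junctions, the far chromosome 19 junction had 191 reads in sudemycin U2AF1(S34F) mouse 9 against 156 to 164, and the junction opposite to Myrip at chr9:120268920-120269760 had 40 in sudemycin U2AF1(WT) mouse 9 against 1 to 6. Elmo2 had 2 reads in vehicle U2AF1(S34F) mouse 3 and 1 in sudemycin U2AF1(S34F) mouse 10. The Pira5 junction chr7:3684370-3736048 had 8 reads in sudemycin U2AF1(WT) mouse 6 against 0 to 1, and Pag1 had 42 in sudemycin U2AF1(S34F) mouse 2 against 0 to 2.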

How the results depend on the processing

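No difference in rate, share outside genes or share in immunoglobulin loci passed under any alternative run. Signs turned as follows, and the cause was not tested. The rate difference became -590.3 CPM (drug, U2AF1(WT)) and 35.3 (drug, U2AF1(S34F)) without the 10 junctions with most reads, -7.01 (genotype, sudemycin) on autosomes only and -388.4 (drug, U2AF1(WT)) without junctions with over 90% of reads in 1 mouse, an alternative chosen after seeing the data. The share outside genes became 0.576 percentage points (drug, U2AF1(WT)) without the 10 junctions and -1.23 (genotype, vehicle) without junctions of 1 mouse. The immunoglobulin share (drug, U2AF1(WT)) became 0.019 with all junctions of the class, 0.275 without the 10 and 0.073 without junctions of 1 mouse.

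The counts of calls of unannotated junctions moved by over 1.5 times in these cases. With gene counts as offset, they were 248 (genotype, vehicle), 298 (genotype, sudemycin), 10 (drug, U2AF1(WT)) and 8 (drug, U2AF1(S34F)). At FDR under 5% they were 470, 423, 9 and 35. With no minimum of reads they were 351 and 345 in the drug comparisons, with DESeq2 162 and 277, and with 1 model for all mice 58 and 21, while a log2 fold change of at least 1 left 45 in U2AF1(S34F) mice. For the interaction, DESeq2 gave 152. With the gene offset, the junctions of Fpr3 (drug, U2AF1(S34F)) and Chi3l3 (genotype, sudemycin) turned to -2.39 and -0.17 on the log2 scale.

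The deviations of mice with the same number correlated at -0.081 to 0.061, and only for number 10 was the mouse of that number the best match. Low correlations over many junctions cannot exclude pairing, so whether the numbers pair the samples was left undecided. With the replicate block, calls were 1105 (genotype, vehicle) and 1024 (genotype, sudemycin), and 447 and 441 for the same mice without the block, an alternative chosen after seeing the data, and the share outside genes under vehicle became -2.11. No paired analysis was possible because the drug groups share no replicate number.

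Leaving out 1 mouse gave 582 to 828 calls (genotype, vehicle), 514 to 741 (genotype, sudemycin), 10 to 22 (drug, U2AF1(WT)), 31 to 83 (drug, U2AF1(S34F)) and 0 to 2 (interaction, 2 without vehicle U2AF1(S34F) mouse 5). Counts moved by over 1.5 times without sudemycin U2AF1(WT) mouse 12 (11) or vehicle U2AF1(WT) mice 1 (11), 3 (10) or 5 (11), and without sudemycin U2AF1(S34F) mice 2 (31), 9 (45) or 10 (45). In the same order of the 4 comparisons, rate differences ranged over 355 to 1941, -487 to 1129, -404 to 1036 and -1217 to 369, shares outside genes over -1.45 to 1.78, -2.60 to -0.525, -2.14 to -0.169 and -4.45 to -1.22, and immunoglobulin shares over -1.34 to -0.708, -2.01 to -0.915, -0.625 to 0.472 and -0.832 to -0.259. Of 1651 values of the named junctions under alternatives, 1454 kept direction and call, 195 lost the call and 2 turned sign.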
